A study of Bos taurus with 9 samples.

Results

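Extracellular vesicles (EVs) are membrane-bound particles that cells release into body fluids, and those of follicular fluid carry small RNA around the oocyte and the granulosa and theca cells of the antral follicle. Here the known and homologous microRNAs (miRNAs) of these vesicles were compared between large (>9 mm) and small (3–5 mm) bovine follicles, by miRNA name, by family, by genomic cluster and by hairpin arm. The miRNAs were all 249 of the 101889 deposited loci that the study matched to a miRNA name, and they carry 225 names, 181 of them bovine and 44 given by homology to another species, written with that species' prefix (chi- for goat, for example). The counts of loci that share a name were summed. This left 20 names that stand for more than 1 locus, 155 families (32 of them with 2 or more names), and 55 genomic clusters of at least 2 loci within 10 kb of each other, which hold 149 of the 249 loci.

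The animals were cattle (Bos taurus) of unstated age and breed, whose ovaries came from an abattoir and received no treatment. Fluid was pooled by follicle diameter, EVs were pelleted by differential ultracentrifugation, and the small RNA of each EV pellet was made into 1 library. There were 3 libraries from independent pools for each size, called small 1, 2 and 4 and large 10, 11 and 12 here. The medium (6–9 mm) libraries 5, 6 and 8 entered the same fit and contribute to the estimate of spread. A pool mixes follicles of many animals, healthy and atretic, so the p-values measure the spread between 3 pools of fluid, not between animals. The study made 3 collections, each of which gave fluid of all 3 sizes. The labels do not say which libraries came from the same collection, so collection is no term in the fits and differences between collections stay in the spread within a size.

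A miRNA is cut from a hairpin precursor, from which either the 5′ or the 3′ arm can give the mature strand. The mature strand guides the silencing complex to messenger RNAs that match its seed, the short stretch near its 5′ end, so that names with the same seed form a family with overlapping targets. Hairpins that lie close together are often transcribed as 1 precursor, although the final amount of each mature strand is also set after transcription. In the ovary, miRNAs are needed for follicle growth, for the response of granulosa cells to gonadotropins and for the change of the follicle into a corpus luteum.

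The depth on these miRNAs differed between sizes. The deposited counts summed to 14664460, 8941598 and 10172365 in small 1, 2 and 4 and to 9738690, 10230770 and 11689805 in large 10, 11 and 12. The miRNA loci held 3394554, 1257402 and 2734034 of these counts in the small and 154101, 146617 and 660594 in the large libraries. Large 12 thus had over 4 times the miRNA counts of the other two large libraries, and small 1 was the deepest of all. A name with 3 counts makes up 8.84e-05% of the miRNA counts in small 1 and 0.00205% in large 11, which is taken as the smallest share each can show, and covers counting error only because amplified reads are not independent molecules. All 225 names had a count above 0 in each small library, and 218, 218 and 224 of them had one in large 10, 11 and 12.

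The profiles of the small libraries were the more alike. Pearson's correlation of log2 normalized counts across the 225 names was between 0.948 and 0.971 for pairs of small libraries and between 0.873 and 0.912 for pairs of large libraries. Pairs of 1 small and 1 large library gave 0.804 to 0.862. These describe agreement across names, which are not independent replicates.

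Because miRNA took a much smaller part of the counts in large follicles, the reference matters for every direction given below. Abundance is given as a share of the library's miRNA counts, or as a normalized count (counts per 1000000 miRNA counts, after trimmed mean scaling, TMM), and "higher" means higher relative to the other miRNAs. Relative to the total of all deposited loci, 41 of the 47 names that rose among the miRNAs had a negative log2 fold change. With TMM over all deposited loci, 45 of them did. In these bulk samples, fewer vesicles of a type and less RNA in each vesicle cannot be told apart.

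By name, 96 of the 225 miRNAs differed in abundance between large and small follicles (edgeR quasi-likelihood test, false discovery rate (FDR) under 0.05), which is 42.7% of those tested, with 47 (20.9%) higher and 49 (21.8%) lower in large follicles. Scaled to the total of all deposited loci, 1 was higher and 170 were lower, and with TMM over all deposited loci 0 were higher and 209 lower, with 1 and 0 higher names at an unadjusted p under 0.05. The median log2 change over all names was -0.09 on the miRNA scale and moved to -3.16 and -4.72 on the other 2 scales. For 115 names (51.1%), every large library lay on the same side of every small one. Called names changed by 1.76-fold to 52.5-fold, with a median of 3.36-fold, leaving out miR-1388-3p, which had no counts in large follicles. Of the bovine names 39 were higher and 41 lower, and of the homologous names 8 were higher and 8 lower. The 47 higher names together took 14.5% of miRNA counts in small and 33.5% in large follicles. The 49 lower names took 24.8% and 10.3%, and the other 129 names took 60.7% and 56.2%. Leaving out small 1 reduced the calls to 30 higher and 30 lower, leaving out large 11 to 30 higher and 35 lower, and 53 of the 96 called names kept their call with each library left out in turn.

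How far a few names dominate the counts was compared by shares, where 3 libraries against 3 cannot give a p under 0.1. The 10 most abundant names of a library held 55.2% ± 0.27 (SD, n = 3) of its counts in small and 56.2% ± 2.00 in large follicles (exact permutation test, two-sided, p = 0.4). It took 8.67 names on average to reach 50% of the counts in either size (exact permutation p = 1). To reach 90% took 45 names in each small library and 43.7 ± 0.577 in large follicles, without overlap (exact permutation p = 0.1).

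The name with the highest mean share differed between sizes. MiR-10b, which lies by the HOXD4 gene at chr2:20797664-20797685 (UMD3.1, the build of the deposited loci, for all positions here), took 10.5%, 9.37% and 11.5% of miRNA counts in small 1, 2 and 4 and 5.12%, 5.90% and 5.40% in large 10, 11 and 12. All small libraries lay above all large ones, and the log2 change was -0.86 ± 0.25 (SE; FDR 0.0209). Leaving out small 4 or large 10 ended this call, with an FDR of at most 0.0626. MiR-22-3p (chr19:23382446-23382467) had the highest mean share in large follicles, with 9.37%, 8.34% and 10.1% (in large 10, let-7f was above it), against 5.59%, 4.02% and 5.53% in small follicles. It rose by a log2 of 0.96 ± 0.30 (FDR 0.0267) without overlap, although the call was lost without small 1, small 2, small 4, large 11 or large 12 (FDR up to 0.0759).

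MiR-30d was nearly constant among the large libraries. It took 0.838%, 1.49% and 1.25% in small 1, 2 and 4 and 3.77%, 3.97% and 3.86% in large 10, 11 and 12. That is a mean of 3.86% ± 0.102 against 1.19% ± 0.329 (SD, n = 3), a 3.36-fold rise (log2 1.75 ± 0.34, FDR 0.00315) which held with each library left out. Every large library lay far above the small ones.

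MiR-148a, an abundant miRNA of liver and many epithelia, took 6.42%, 4.17% and 3.36% in small and 1.91%, 1.94% and 1.27% in large libraries. It fell by 1.40 ± 0.38 on the log2 scale (FDR 0.0133), a call that was lost without small 1 (FDR 0.0719). MiR-191 and miR-186 rose by a log2 of 0.92 and 0.89 (FDR 0.0300 and 0.0260). Both had no overlap between sizes, but the call for miR-191 was lost without any of small 1, small 2, medium 5, large 11 or large 12 (FDR up to 0.0908) and that for miR-186 without small 1, small 2, small 4 or large 11 (FDR up to 0.0837).

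The sizes overlapped in other abundant names, none of which was called with all libraries in the fit. Let-7f took 4.68%, 8.78% and 3.55% in small and 9.58%, 8.28% and 2.62% in large libraries, so that the lowest value of all was in large 12 and the sizes overlapped (FDR 0.715). MiR-92a took 4.59%, 3.98% and 7.30% in small and 6.04%, 7.37% and 9.97% in large libraries, again with overlap (log2 0.66 ± 0.35, FDR 0.154). MiR-423-5p took 4.34%, 8.20% and 5.34% in small libraries but 1.26%, 1.13% and 5.01% in large ones, where large 12 lay within the range of the small libraries (log2 -1.19 ± 0.59, FDR 0.130). Without large 12 miR-423-5p was called lower (log2 -2.33, FDR 0.00333). MiR-27b took 10.2%, 4.93% and 8.50% in small and 5.26%, 4.81% and 4.62% in large libraries (FDR 0.114), and was called lower without small 2 (log2 -0.82, FDR 0.0400).

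**Figure D1:**
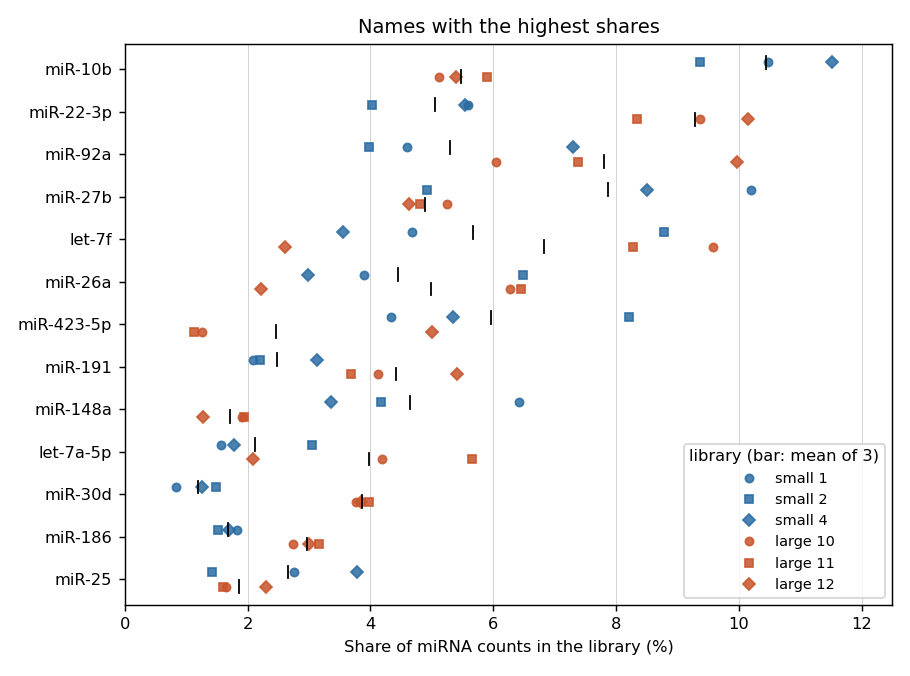
Share of miRNA counts (x axis, %) of the 13 names that were among the 10 highest mean shares in small or large follicles, for each small (blue) and large (orange) library, with a black bar at the mean of 3. MiR-10b moves from 10.4% to 5.47%, and the large libraries of miR-30d sit together at 3.77% to 3.97%, above every small library.

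Summed by family, 25 of the 155 families were higher (16.1%) and 34 lower (21.9%) in large follicles at an FDR under 0.05, 38.1% in all. Of the 32 families with 2 or more names, 3 were higher, 13 were lower and 16 were not called. The 13 lower families held 30.6% of miRNA counts in small follicles and 15.0% in large follicles, and the 3 higher ones 0.636% and 2.10%. The numbers depend on how the families were scaled. With the scaling factors computed over names in place of families, 38 families were higher and 31 lower. This alternative was chosen after seeing the data, and the factors shift every family by the same amount. The median log2 change over all families was -0.19 with the family factors and 0.10 with those of the names. The log2 changes of families below are therefore not on the scale of their members' changes. They can lie below those of all members, as in miR-10, miR-24, miR-125 and miR-192/miR-215.

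The families that were lower include several of the most abundant. The miR-10 family took 10.6%, 9.44% and 11.6% of miRNA counts in small 1, 2 and 4 and 5.22%, 5.97% and 5.46% in large 10, 11 and 12. This is nearly all miR-10b, since miR-10a stood at 0.107% and 0.0835% and was not called. The family fell by 1.14 ± 0.17 on the log2 scale (FDR 0.000643). The miR-148/miR-152 family fell from 5.10% ± 1.63 to 2.04% ± 0.517 (SD, n = 3; log2 -1.55 ± 0.38, FDR 0.00925), a call lost without small 1 or small 2 (FDR up to 0.0804).

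The miR-103/miR-107 family is encoded within the pantothenate kinase genes PANK1, PANK2 and PANK3 and has been tied to insulin and lipid metabolism. It took 2.23%, 2.23% and 2.82% in small and 0.563%, 0.715% and 1.51% in large libraries. It fell 3.01-fold (log2 -1.59 ± 0.37, FDR 0.00662), with miR-103 and miR-107 both called lower, although leaving out large 11 ended the family call (FDR 0.0535). The calls of miR-103 (lost without small 4, large 10 or large 11, FDR up to 0.0908) and of miR-107 (kept only without large 12, FDR up to 0.146) were less secure. Both are counted on a region of 18 bases. Counts at the 2 loci of miR-103 and at that of miR-107 were near equal in small 1 (25726, 25733 and 24299). In large 10 they were less so (352, 410 and 105). The calls of the 2 names may rest in part on the same reads, which was not tested.

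Among families of 2 or more names, the steepest falls were in miR-19, miR-192/miR-215, miR-29 and miR-130/miR-301. The miR-29 family, known as a regulator of collagen and other matrix genes, took 0.676%, 0.527% and 0.653% in small and 0.101%, 0.123% and 0.216% in large libraries. That is a 4.85-fold fall (log2 -2.28 ± 0.32, FDR 0.000643), shared by miR-29a (log2 -1.95) and miR-29c (log2 -2.46). The miR-130/miR-301 family took 0.846%, 0.654% and 0.842% in small and 0.247%, 0.162% and 0.221% in large libraries, a 4.30-fold fall (FDR 0.000643). In this family miR-130a and miR-130b were called lower and miR-301a (log2 -0.53 ± 0.49) was not.

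MiR-192 and miR-215, a pair best known from liver, gut and kidney and from the p53 response, summed to 0.893%, 0.545% and 0.655% in small and 0.196%, 0.137% and 0.128% in large libraries. They fell 5.27-fold (log2 -2.40 ± 0.34, FDR 0.000643) and both members were called lower, miR-215 not without small 1 (FDR 0.0561). For these 4 families and for miR-10 and miR-378 (1.14% to 0.489%, log2 -1.41 ± 0.28, FDR 0.00345) the direction and the call held with each library left out.

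The miR-17/miR-20/miR-93/miR-106 family, whose seed is shared by the growth-promoting miR-17-92 cluster and its relatives, took 0.684%, 0.697% and 0.605% in small and 0.414%, 0.368% and 0.278% in large libraries. The groups did not overlap and the family fell by 1.14 ± 0.26 on the log2 scale (FDR 0.00640), but not past the threshold without small 1 or small 2 (FDR up to 0.0614). MiR-17-5p, miR-20a (not without small 1, FDR 0.0546) and miR-106b were called lower, and miR-93 (log2 -0.57 ± 0.26, FDR 0.104) was not.

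Calls for 3 more lower families were less secure. The miR-27 family fell from 7.98% ± 2.74 to 4.94% ± 0.331 (log2 -0.89 ± 0.25, FDR 0.0171) although its shares overlapped, and neither miR-27a-3p nor miR-27b was called. That call was lost with the factors of the names, with the total of the miRNA loci, with the highest-count locus only and without small 1, medium 8, large 10 or large 11, where the FDR reached 0.197. The miR-146 family (log2 -1.36 ± 0.44, FDR 0.0327) joins miR-146b, which was lower unless small 1 or small 2 was left out (FDR up to 0.0818), and miR-146a, which had a log2 change of 1.14 ± 0.48 (FDR 0.0756) and was called higher without large 12 (1.45, FDR 0.0334). Without small 1, small 2, medium 8 or large 10 the family call was lost (FDR up to 0.159), as it was with DESeq2's size factors, the total of the miRNA loci, the highest-count locus only, the factors of the names and a fit of the 2 sizes. The miR-24 family (log2 -0.95 ± 0.33, FDR 0.0477, on the family scale) joins miR-24-3p and eca-miR-24, near-identical copies whose reads may be split between them. Neither name was called, with log2 changes of -0.66 and -0.63 on the scale of the names. The family call was lost in 7 of the 9 leave-one-out fits (FDR up to 0.232), all but those without small 2 or large 12. It was also lost under the same other settings as miR-146.

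The higher families were miR-125, miR-339 and the 3′ arms of let-7/98. MiR-125a and miR-125b, vertebrate relatives of the worm developmental timer lin-4, together took 0.349%, 0.554% and 0.497% in small and 1.44%, 1.84% and 1.68% in large libraries. Every large library lay above every small one, and the rise of 3.02-fold (log2 1.60 ± 0.26, FDR 0.00118) was shared by both members (log2 1.85 ± 0.33 and 2.11 ± 0.32). The medium libraries, at 0.902%, 0.816% and 1.07%, lay between the other sizes. The miR-339 family went from 0.0673% to 0.203% (log2 1.39 ± 0.28, FDR 0.00328), carried by miR-339a.

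Let-7, a family tied to the timing of differentiation, was the largest family by mean share in both sizes, though not in small 4, where miR-10 was above it, nor in large 12, where miR-25/32/92 was. It was not called as a whole. Its 9 mature 5′ names took 13.2%, 17.8% and 10.4% of miRNA counts in small and 19.0%, 19.2% and 9.25% in large libraries, with large 12 the lowest of all and no name called, although let-7a-5p was called higher without small 2 (log2 1.37, FDR 0.0419) or large 12 (1.22, FDR 0.0382). Its log2 change was -0.05 ± 0.35 (FDR 0.893), and the sign depends on the scaling (0.22 with the factors of the names). The 6 names from the 3′ arms of the same hairpins together took 0.0769%, 0.0729% and 0.157% in small and 0.225%, 0.200% and 0.312% in large libraries (log2 1.08 ± 0.35, FDR 0.0340). Of them only chi-let-7d-3p and chi-let-7b-3p were called, and log2 changes ranged down to -0.82 in bta-let-7a-3p. The 5′ and 3′ sums were not compared by a test, and the family call was lost without small 1, medium 5 or large 12 (FDR up to 0.0829).

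In some families part of the members were called, although the difference between members was not tested. In miR-30, a family of 6 names, miR-30b-5p, miR-30c, miR-30d and miR-30f were higher in large follicles, by 2.24-fold, 2.84-fold, 3.36-fold and 6.90-fold. The miR-30b-5p call was lost without large 11 (FDR 0.0520). MiR-30a-5p (log2 0.25 ± 0.37) and miR-30e-5p (log2 -0.66 ± 0.48) were not called, and the sum of 3.99%, 6.83% and 4.37% in small and 9.72%, 8.51% and 6.35% in large libraries overlapped (FDR 0.213, or 0.0230 and called higher without small 2). In miR-25/32/92, miR-92b was higher by a log2 of 3.71 ± 0.59 and miR-32 lower by -1.58 ± 0.39, while miR-25 and miR-92a were not called. The family took 8.18% ± 2.99 in small and 11.9% ± 3.77 in large follicles (FDR 0.378). The miR-181 family, linked to lymphocyte development, took 0.866% ± 0.127 and 1.52% ± 0.117 without overlap, with an FDR of 0.0610 on its own scale. With the factors of the names (log2 0.87), without small 1 (0.86, FDR 0.0410) or without small 2 (0.84, FDR 0.0479) it was called. A call was also gained with DESeq2, with its size factors, with the total of the miRNA loci and with the highest-count locus only. Of the family's 4 names, miR-181a (lost without small 1, small 4 or large 11, FDR up to 0.104) and miR-181b were called higher.

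**Figure D2:**
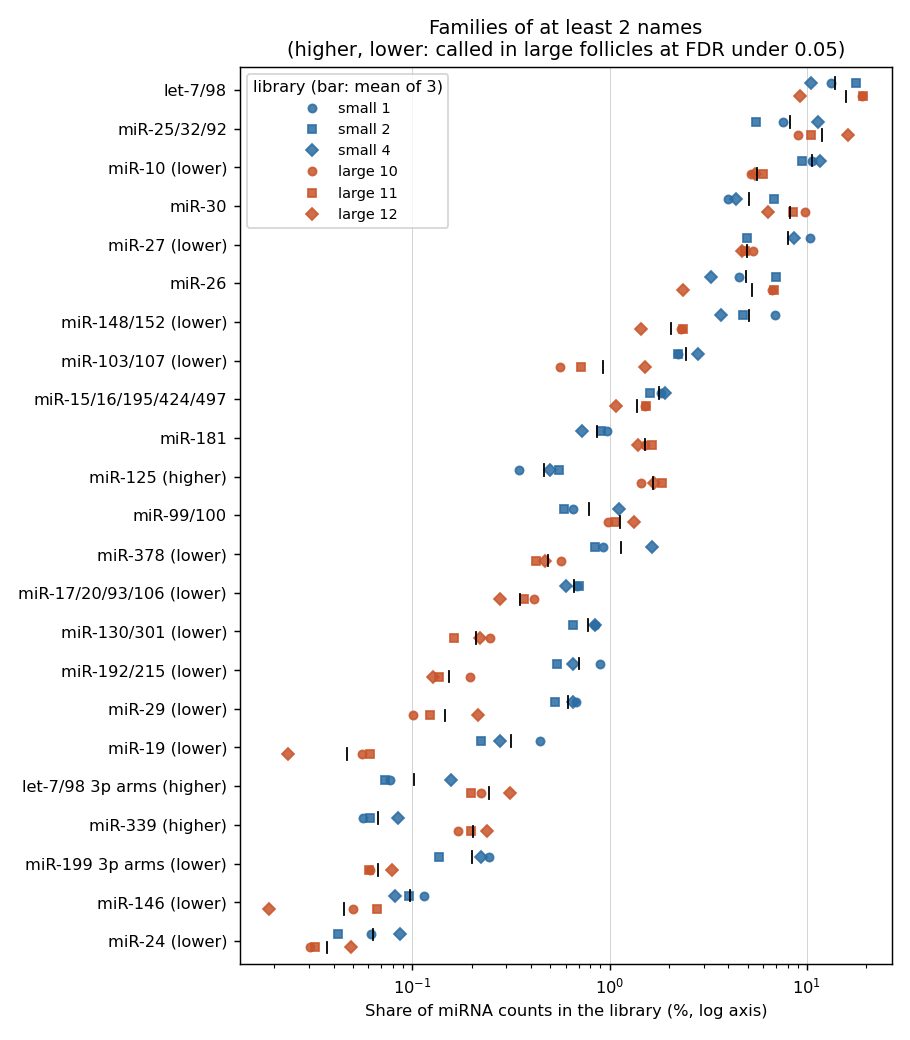
Share of miRNA counts (x axis, %, log axis) of the 23 families of at least 2 names that took 1% or more in a size or were called, for each small (blue) and large (orange) library, with a black bar at the mean of 3. Most families that were called lie to the left in large follicles, such as miR-29 at 0.147% against 0.619%, while miR-125 lies to the right at 1.65% against 0.467%.

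The largest rises of single names were mostly in miRNAs of low abundance. MiR-150, an abundant miRNA of mature lymphocytes, had a normalized count of 7.79, 6.85 and 8.42 in small 1, 2 and 4 and of 60.6, 375 and 782 in large 10, 11 and 12. These rest on 27, 8 and 25 raw counts in the small libraries and 10, 51 and 469 in the large ones. The lowest large library was well above the highest small one, and the fitted rise was 52.5-fold (log2 5.71 ± 1.00, FDR 0.00180), or a log2 of 4.77 without large 12.

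MiR-132, which gonadotropins and cyclic AMP are known to induce in granulosa cells, had normalized counts of 53.1, 30.0 and 62.3 in small and 121, 470 and 1948 in large libraries. It rose 17.5-fold (log2 4.13 ± 0.94, FDR 0.00622), with the large libraries spread over more than 10-fold and large 12 the highest. Without large 12 the log2 change was 2.58. MiR-486, an erythroid miRNA within the ankyrin gene ANK1, had 450, 2152 and 212 in small and 7110, 8834 and 11911 in large libraries. Small 2 stood apart from the other small libraries but below every large one, and the rise was 9.92-fold (log2 3.31 ± 0.75, FDR 0.00622), or a log2 of 4.81 without small 2.

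MiR-92b rose to a mean share of 2.24% from 0.189%. Its normalized counts were 1546, 1036 and 2887 in small and 12179, 16427 and 42796 in large libraries (log2 3.71 ± 0.59, FDR 0.000994, or 2.97 without large 12). MiR-204, within the channel gene TRPM3 and known from pigmented epithelium, had 175, 594 and 420 in small and 3064, 4993 and 4428 in large libraries. That is a 10.5-fold rise with no overlap (log2 3.40 ± 0.48, FDR 0.000572). MiR-328, miR-424-3p and miR-1343-3p completed the 8 largest rises, by a log2 of 3.20, 2.91 and 2.80, and all 8 kept their direction and call with each library left out.

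Of the 8 largest falls, miR-335 was the most abundant. It lies in an intron of the imprinted gene MEST at chr4:95071006-95071028 and had normalized counts of 4800, 6631 and 2183 in small and 382, 140 and 194.99 in large libraries. The fall was 19.1-fold (log2 -4.25 ± 0.60, FDR 0.000572), and the other arm of its hairpin, chi-miR-335-3p, was lower by a log2 of -1.69 ± 0.39. MiR-19a and miR-19b, of the miR-17-92 cluster, were both lower. Normalized counts of miR-19a were 1179, 583 and 421 in small and 96.9, 22.0 and 43.3 in large libraries (log2 -3.76 ± 0.59, FDR 0.000956). The large libraries held 16, 3 and 26 raw counts of it, so large 11 was at the limit of 3 counts. Normalized counts of miR-19b were 3192, 1834 and 2132 in small and 423.9, 639 and 217 in large libraries (log2 -2.50 ± 0.44, FDR 0.00183).

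MiR-1388-3p was the only name with no counts in any large library. Its normalized counts were 51.6, 18.0 and 39.7 in small libraries, so that large follicles held at least 2.42-fold less of it, with 3 counts per library as the limit. MiR-193a-3p fell by 2.96 ± 0.71 on the log2 scale (FDR 0.00760), or by 3.83 without large 12. It had only 0, 1 and 5 raw counts in large 10, 11 and 12. The remaining falls of the 8 were also in low counts, and each was lost when certain libraries were left out. They were miR-449a (log2 -3.07) and miR-190b (log2 -2.52), both lost without small 1 or large 11 (FDR up to 0.0727 and 0.0789), and chi-miR-708-3p (log2 -2.50), lost without small 1, small 2, large 10 or large 11 (FDR up to 0.0851). Without large 12 these were -2.23, -5.23 and -3.88, and miR-449a was -4.81 without large 10.

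**Figure D3:**
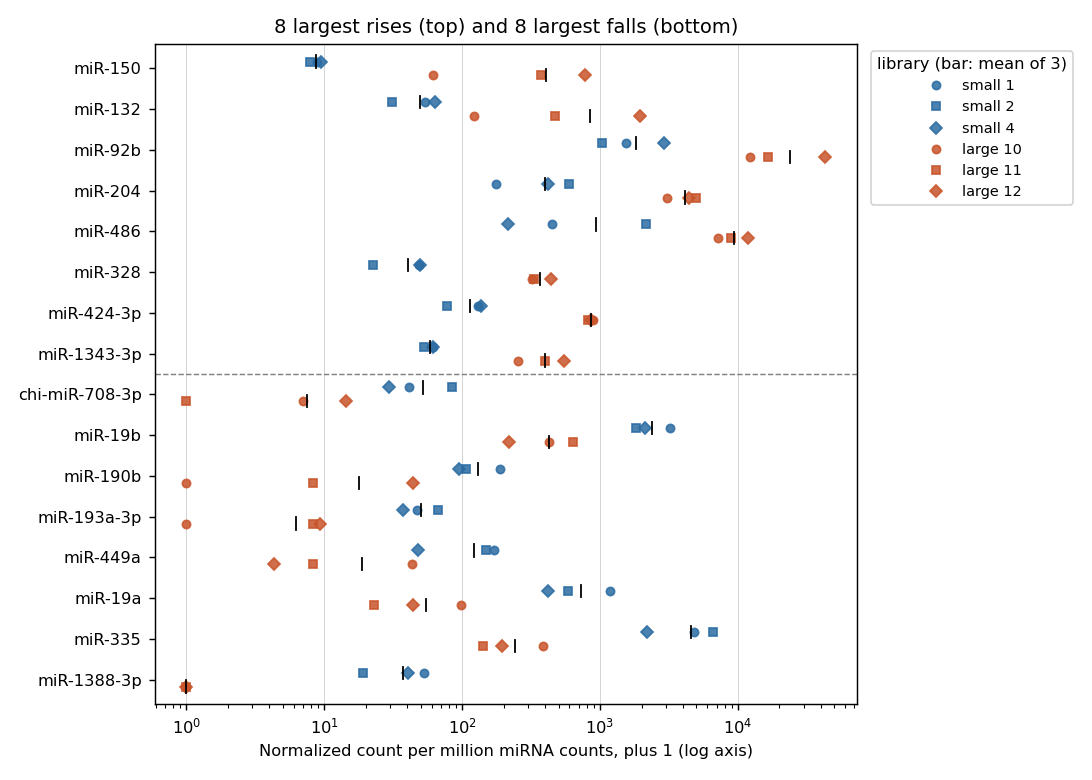
Normalized count, plus 1 (x axis, log axis), of the 8 names with the largest rises (above the dashed line) and the 8 with the largest falls (below it) among called names whose sizes did not overlap. Points are libraries (small blue, large orange) and black bars are means of 3. MiR-335 drops from between 2183 and 6631 in small libraries to between 140 and 382 in large ones, and miR-1388-3p has no counts in large libraries.

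By genomic position, the 155 units were the 55 clusters and 100 single loci. Of all units 32 were higher (20.6%) and 40 lower (25.8%) in large follicles, 46.5% in all, and of the 55 clusters 10 were higher, 12 lower and 33 not called. Without small 1, 18 units were higher and 18 lower, and without large 11, 23 were lower. A name with several loci contributes to several clusters, so clusters that hold the same name are not independent. How the study assigned reads that match more than 1 place is not stated. Shares of miR-92a, miR-19b, let-7a-5p, let-7f, miR-181a, miR-181b, miR-194 and miR-199a are therefore uncertain by locus.

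The miR-30d/30b cluster at chr14:8080297-8084758 was higher the larger the follicles. It took 0.914%, 1.59% and 1.33% in small and 3.93%, 4.15% and 3.98% in large libraries, with 1.82%, 2.03% and 2.91% in the medium ones. All 3 sizes were apart, in order of diameter, and the rise from small to large was 3.28-fold (log2 1.71 ± 0.32, FDR 0.00233). The other miR-30 cluster with 2 hairpins, miR-30c/30e at chr3:106059414-106062567 within NFYC, took a mean of 1.97% in both sizes. There miR-30c was higher and miR-30e-5p was not called. MiR-30e-5p was the more abundant except in large 12 (2868 counts, against 3991 of miR-30c).

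The X-linked cluster of miR-424, miR-450 and miR-542 at chrX:18178955-18185514, whose rodent counterpart restrains cell proliferation, took 0.340%, 0.307% and 0.425% in small and 0.851%, 0.821% and 0.651% in large libraries. It rose 2.26-fold (log2 1.17 ± 0.25, FDR 0.00492) with no overlap. Of its 6 names, miR-450a (log2 2.75), miR-450b (1.00), miR-542-5p (1.30) and miR-424-3p (2.91) were called higher. Of these, miR-450b lost the call without small 1, small 2 or large 11 (FDR up to 0.0729), and miR-542-5p kept it only without medium 6 or large 12 (FDR up to 0.124). The strand taken as the mature form in other species, miR-424-5p, had a log2 change of -0.08 ± 0.59.

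The cluster of miR-99b, let-7e and miR-125a at chr18:58014874-58015608 rose from 1.46% ± 0.322 to 3.00% ± 0.199 (log2 1.12 ± 0.28, FDR 0.0112), a call lost without small 1 (FDR 0.0526). MiR-125a was its only called name. Both miR-181a/181b clusters were higher, that at chr11:95709449-95710664 within the orphan nuclear receptor gene NR6A1 by a log2 of 0.97 ± 0.26 (FDR 0.0141). The other, at chr16:79685811-79686018, was higher by 0.88 ± 0.26 (FDR 0.0216), a call lost without small 1 or large 11 (FDR up to 0.0677). Both clusters hold miR-181a and miR-181b, and that on chromosome 11 also holds efu-miR-181f, which was called higher (log2 2.27). How reads that match both clusters were assigned is not stated. Over the 9 libraries, miR-181a had 40493 and 40506 counts at its 2 loci, and miR-181b had 5958 and 6787. The 2 cluster calls may therefore rest largely on the same reads.

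MiR-191 and miR-425 at chr22:51543484-51543989 rose from 2.55% ± 0.591 to 4.57% ± 0.921 (log2 0.93 ± 0.29, FDR 0.0265), a call lost without small 1, small 2 or large 12 (FDR up to 0.101). Single hairpins with both arms counted also rose, namely miR-28 within LPP (log2 1.80 ± 0.31), miR-744 (1.49 ± 0.35), miR-151 within PTK2 (0.93 ± 0.25) and miR-22 (0.95 ± 0.30). Of these, miR-151 lost the call without small 1 (FDR 0.0574) and miR-22 without small 1, small 2 or large 12 (FDR up to 0.0632).

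Clusters that were lower included miR-194/192 at chr29:43731474-43731700. It took 0.820%, 0.521% and 0.610% in small and 0.186%, 0.133% and 0.120% in large libraries. This fall of 4.30-fold (log2 -2.10 ± 0.33, FDR 0.000945) was that of miR-192, as miR-194 had a log2 change of 0.51 and was not called. The cluster of miR-23a, miR-27a and miR-24 at chr7:12981643-12981998 took 0.396%, 0.399% and 0.359% in small and 0.114%, 0.103% and 0.246% in large libraries (log2 -1.20 ± 0.42, FDR 0.0354). None of its names was called, and its call was lost without small 1, small 2, medium 5, large 10 or large 11 (FDR up to 0.103), with a log2 of -1.85 without large 12. Its paralog with miR-23b and miR-27b at chr8:83009652-83010441, within AOPEP, was far more abundant, with 8.22% ± 2.58 and 5.15% ± 0.322, and was not called (FDR 0.0876), but was lower without small 2 (log2 -0.81, FDR 0.0291).

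MiR-16a/15a at chr12:19596254-19596415, whose human counterpart is deleted in chronic lymphocytic leukemia, fell from 0.475% ± 0.0523 to 0.264% ± 0.0307 (log2 -0.79 ± 0.25, FDR 0.0272). Without small 1, small 4, medium 8 or large 10 it was not called (FDR up to 0.106), nor in a fit of the 2 sizes or without names of several loci. The miR-16b/15b paralog within SMC4 showed log2 changes of -0.04 ± 0.29 and -0.08 ± 0.35 for its names, neither called. On the X chromosome, miR-532/188 (log2 -0.97 ± 0.33) and miR-500/502/660 (log2 -0.87 ± 0.28, 0.980% to 0.510%) were lower too. The first call was lost without small 1, small 4, medium 8, large 11 or large 12 (FDR up to 0.118) and the second without small 1, small 4 or large 11 (FDR up to 0.105). Both were lost in a fit of the 2 sizes, and the first also with DESeq2's size factors and without names of several loci.

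Both miR-199a loci, within the dynamin genes DNM2 and DNM3, were lower by a log2 of -1.15, one of them together with miR-214. Over the 9 libraries, miR-199a-3p had 6261 and 6321 counts at these 2 loci, so both falls may rest on the same reads. Both calls were lost without small 1, small 4, large 10 or large 11 (FDR up to 0.118 and 0.119), and that of the locus with miR-214 also without names of several loci. The miR-215/194 cluster within IARS2 (log2 -1.39 ± 0.47, FDR 0.0320) was lost without small 1, small 4, medium 8, large 11 or large 12 (FDR up to 0.138) and in a fit of the 2 sizes.

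The miR-17-92 cluster at chr12:66226567-66227324 shows how 1 abundant member can hide the others in a sum. MiR-17-5p, miR-19a, miR-19b and miR-20a were lower, by a log2 of -1.37 ± 0.32, -3.76 ± 0.59, -2.50 ± 0.44 and -1.71 ± 0.46. MiR-17-3p and miR-18a had log2 changes of -2.05 ± 0.78 and -1.55 ± 0.68 and were not called (FDR 0.0537 and 0.0855), while miR-92a had 0.66 ± 0.35. As miR-92a holds most of the counts, the cluster took 2.84%, 2.48% and 4.06% in small and 3.50%, 4.22% and 5.37% in large libraries, with a log2 change of 0.58 ± 0.31 (FDR 0.168, or a call at log2 0.70 and FDR 0.0372 without medium 8). Without the names that also have a locus elsewhere (miR-92a and miR-19b), the sum was lower in large follicles by a log2 of -1.80 (FDR 0.00175). In the related cluster of miR-106b, miR-93 and miR-25 within MCM7 (chr25:36892057-36892521), miR-106b was lower (log2 -1.98 ± 0.44, FDR 0.00622), and the sum, mostly miR-25, was not called (FDR 0.320).

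**Figure D4:**
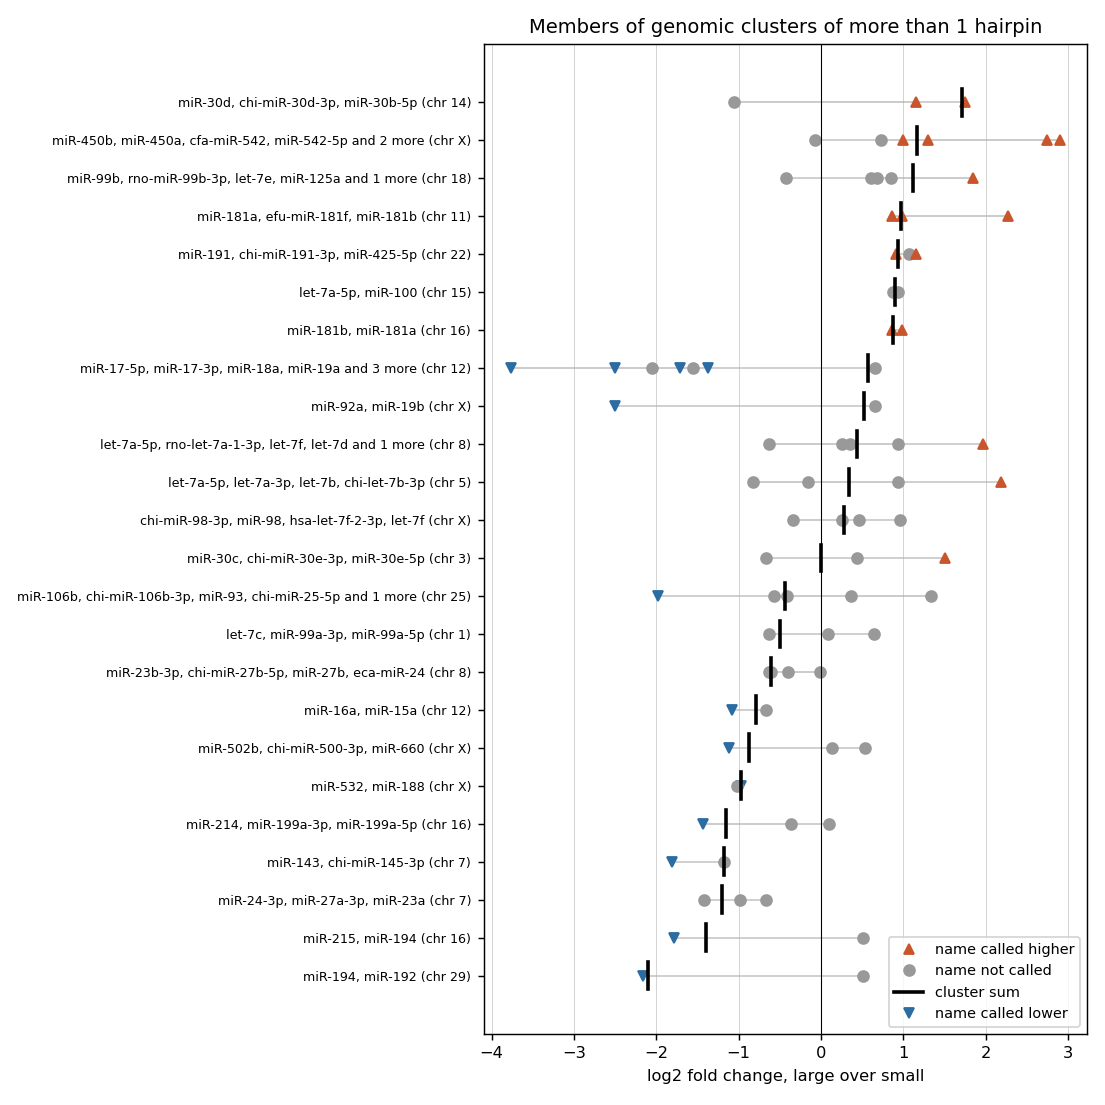
Log2 fold change, large over small follicles (x axis), of each name (symbols) in the clusters of more than 1 hairpin that took 1% or more of miRNA counts in a size or were called, and of the cluster's summed counts (black bar). In the miR-17-92 cluster on chromosome 12 the names spread from -3.76 for miR-19a to 0.66 for miR-92a, and the bar of the sum stands at 0.58.

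For 45 hairpins both arms had a named locus, so that the choice of arm could be compared, without a filter on counts. The ratio of 5′ to 3′ counts differed between large and small follicles for 22 of them (48.9%; limma on log2 ratios, FDR under 0.05), with 9 shifted to the 5′ and 13 to the 3′ arm. A ratio within a hairpin does not depend on the scaling between libraries. In all 22 the sizes did not overlap, as in 57.8% of the 45. The miR-1388 hairpin, among the 22, had no 3′ counts in any large library. When at least 10 counts on each arm in each size were required, 44 hairpins were tested and 21 called. Without small 1, 0 of the 45 were called by limma, where the lowest FDR was 0.0503 and 23 had an unadjusted p under 0.05. All 22 differences kept their sign there, each at 79.5% or more of its log2 value with all libraries, and without small 4 the number shifted to the 5′ arm was 5.

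Some hairpins changed their more abundant arm. The 5′ arm of miR-424 gave 64.1%, 84.0% and 45.01% of the hairpin's counts in small and 31.0%, 20.1% and 11.3% in large libraries. The groups did not overlap (change of the log2 ratio -3.01 ± 0.83, FDR 0.0147, with -2.30 without small 2 and -3.64 without small 4). That of miR-331 gave 74.3%, 62.7% and 81.2% in small and 13.3%, 23.8% and 48.8% in large libraries, where the first of these rests on 6 counts of 45.

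In miR-106b the 5′ arm went from 69.3%, 61.4% and 51.5% in small to 37.9%, 17.7% and 22.1% in large libraries. In miR-873 it went from 81.4%, 75.0% and 65.2% to 40.1%, 37.8% and 26.9%. In these 4 hairpins the mean share of the 5′ arm was the larger in small follicles and that of the 3′ arm in large ones. In miR-1307 it fell from 92.9%, 97.4% and 89.5% to 82.7%, 49.1% and 51.2%, with large 10 apart from the other large libraries.

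Other hairpins shifted without a change of the arm that was larger on average. The 5′ arm of miR-125b, its usual mature strand, gave 19.98%, 19.1% and 13.3% at its chromosome 1 hairpin in small and 40.9%, 54.5% and 38.1% in large libraries (log2 ratio 1.94 ± 0.46, FDR 0.0144), so that it was the larger arm in large 11 alone. This arm also has a second locus, and how reads that match both were assigned is not stated. In miR-423 the 5′ arm gave 81.9%, 82.7% and 78.7% in small and 49.1%, 39.99% and 68.5% in large libraries, so that the 3′ arm was the larger in large 10 and 11, and large 12 was nearest to the small libraries. The 5′ shift of miR-30d (log2 ratio 2.88 ± 0.78, 2.29 without small 1 with an FDR of 0.0640 and 2.18 without large 12) and the 3′ shift of miR-22 (-2.50 ± 0.82, -1.71 without large 10 with an FDR of 0.0821 and -3.17 without large 12) concern a minor arm of a few percent or less.

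**Figure D5:**
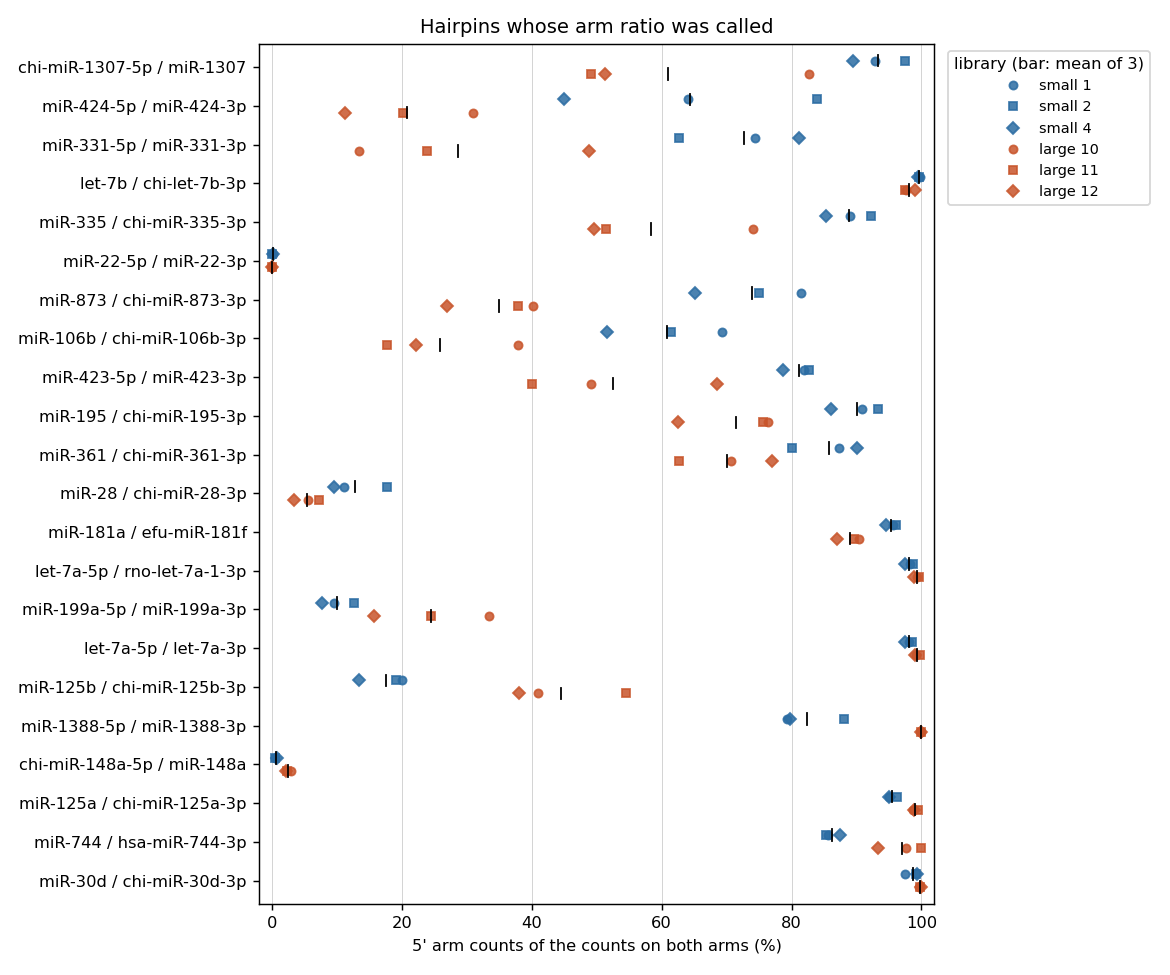
Counts on the 5′ arm as a percentage of the counts on both arms (x axis) for the 22 hairpins whose arm ratio was called, in each small (blue) and large (orange) library, with a black bar at the mean of 3. Hairpins shifted to the 3′ arm are at the top, where miR-424 moves from between 45.01% and 84.0% to between 11.3% and 31.0%, and those shifted to the 5′ arm are at the bottom.

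MiRNAs known to mark a cell type were read as lists, beside the 20.9% of all names that were higher and the 21.8% that were lower. Of 9 blood cell miRNAs 7 were measured, and 4 were higher (miR-150, miR-486, miR-142-5p and miR-342) and 0 lower, with a median log2 change of 2.06 against -0.09 over all names. The miR-342 call was lost without small 1, small 2 or large 11 (FDR up to 0.0826). Of those not called, miR-451 of red cells had a log2 change of 2.06 ± 0.84 (FDR 0.0679) and was called without small 2 (3.04, FDR 0.0295), while miR-155 had -0.02 ± 0.77 and was called lower without large 12 (-1.76, FDR 0.0334). The third, miR-146a (log2 1.14), was called higher without the same library (1.45). Together they took 0.304%, 0.418% and 0.204% of miRNA counts in small and 0.976%, 1.21% and 1.70% in large libraries. The medium libraries, at 0.334%, 0.458% and 0.310%, were at the level of the small ones. The erythroid miR-486 was the most abundant of the list in each large library and in small 2. In small 1 and small 4, miR-155 had more counts (5855 and 2050, against 1558 and 630). MiR-142-5p, made in all blood lineages, was higher by a log2 of 2.32 ± 0.44. MiR-144 and miR-223, the latter a marker of neutrophils, were not among the 225 names. The part of blood cell RNA in the other rises was not tested.

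MiRNAs of mesenchymal and smooth muscle cells took 2.39%, 0.690% and 2.31% in small and 0.672%, 0.518% and 0.985% in large libraries, which overlapped at small 2. Of the 6 measured, miR-199a-3p (log2 -1.43 ± 0.38), the near-identical eca-miR-199b-3p and chi-miR-145-3p were lower. Counts at the 2 loci of miR-199a-3p (2743 and 2829 in small 1) and at that of eca-miR-199b-3p (2738) were near equal. These 2 names may therefore share their reads and are not separate evidence. MiR-143, the most abundant, was not called, except without small 2 (log2 -1.57, FDR 0.0328). MiR-214 (log2 -0.36 ± 0.74) was not called either, except without large 12 (-3.23, FDR 0.00814). The chi-miR-145-3p value went from -1.81 to -2.74 without large 12, and its call was lost without small 1, small 4, medium 5, medium 8, large 10 or large 11 (FDR up to 0.106). Endothelial miR-126-5p was higher by a log2 of 1.18 at a share of 0.0157% and 0.0327%, a call lost without small 1, small 2, medium 6, large 11 or large 12 (FDR up to 0.151), with DESeq2's size factors, the total of the miRNA loci or a fit of the 2 sizes.

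Of the 6 granulosa and gonad miRNAs measured, miR-132 was higher and miR-378, reported to act on aromatase, lower by a log2 of -1.14 ± 0.32 (FDR 0.0151), lost without small 4 or large 11 (FDR up to 0.0659). Gonad-enriched miR-202 took part in a hairpin with 1.78% ± 0.124 in small and 1.80% ± 0.991 in large follicles and was not called on either arm. The list as a whole took 4.87% ± 0.228 and 3.50% ± 1.35. In small follicles miR-21-5p, an anti-apoptotic miRNA of the periovulatory granulosa cell, was the largest of the list by mean share. In large 10 and 12, chi-miR-202-3p had more counts than miR-21-5p (1635 and 16861, against 1048 and 9621), and in large 11 fewer (1112 against 1773). Of the 6 epithelial miRNAs measured, miR-182 was higher (log2 1.47 ± 0.49, 2.14 without small 1) and miR-429 lower (log2 -2.27 ± 0.73). Calls for both were lost without small 2, large 11 or large 12, for miR-182 also without small 4 and for miR-429 without small 1 (FDR up to 0.101 and 0.105). MiR-200a (log2 -1.20 ± 0.80, FDR 0.250) was called lower without large 10 (-2.56, FDR 0.0290). MiR-141 (log2 -1.41, FDR 0.254), tch-miR-200b-3p (-0.21, FDR 0.822) and miR-375 (1.03, FDR 0.167) were not called. The epithelial list took 0.0883% ± 0.0273 in small and 0.122% ± 0.0158 in large follicles, with a median log2 change of -0.70.

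The hepatocyte-specific miR-122 and the muscle miRNAs miR-1, miR-133a and miR-206 were not among the names, and the share of the 2 liver miRNAs measured was that of miR-192. MiR-192 itself had a log2 change of -2.16 ± 0.33 (FDR 0.000860).

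Called names were also described by host gene and by the length of the counted region, which the rule did not use. In RefSeq, 221 of the 225 names matched a miRNA gene, and 138 lay within a protein-coding gene. Of the matched names that were higher, 54.5% lay in such a gene, against 65.3% of those that were lower and 64.1% of those not called. The median length of the counted region was 23 bases for higher and 22 bases for lower and uncalled names. Across the 225 names, longer regions went with higher log2 fold changes (Spearman's rho 0.266), and this was 0.237 over the 177 names with a mean normalized count of at least 100. Names are not independent replicates, and these values are a description.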

How the data were processed

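The authors removed adapters from single-end reads, mapped them with BWA 0.7.5a to UMD3.1, merged mapped reads into loci and deposited, for the well-covered core of every locus, unnormalized read counts. How reads with several matches were assigned is not given in the sources used here. Loci of miRNA and their names came from a supplementary table of the study, joined on the locus identifier. Groups were the follicle sizes of the labels. The members and lists were chosen with earlier results of these data known.

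Counts were summed by name, by family (names of shared seed, grouped by name) and by genomic cluster (10 kb). At each level, in R 4.3.3 with edgeR 4.0.16, TMM factors were computed, 1 model of the 3 sizes was fitted to the 9 libraries without a filter, and large minus small was tested by the two-sided quasi-likelihood test, with Benjamini-Hochberg adjustment over all units of the level and an FDR under 0.05. For hairpins with both arms among the loci, log2((5p + 0.5)/(3p + 0.5)) was tested with limma 3.58.1 without a filter on counts. An alternative fit took only those with at least 10 counts on each arm in each size. Shares were compared by the exact permutation test (scipy 1.17.1). Host genes were read by name from RefSeq.

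Named were the 10 highest shares in each size, the 8 largest rises and falls without overlap, the members of the lists, families and clusters of at least 2 members with a share of 1% or more or a call, and called hairpins. On simulated counts with the size of these 225 names, the test called 15 of 20 names changed by a log2 of 2, 7 of 20 changed by a log2 of 1, and 3 of 185 unchanged ones. Alternatives were DESeq2 1.42.0 and its size factors, edgeR's exact test, totals or TMM over all deposited loci, filterByExpr, other FDR, pseudocount and cluster distances, 1 locus per name, only the 2 sizes, and each library left out.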

Additional observations from a re-analysis of the deposited data

How the results depend on the processing

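Of 92 called items chosen to be named as given above, 36 kept their direction and call under every alternative run (18 of 32 names, 9 of 16 families, 9 of 22 clusters and 0 of 22 hairpins). Other called names that the text gives only as members of families, clusters or hairpins are not in this count. For the 2 scalings over all deposited loci, this reads only the direction relative to the median of all units, since the calls there are of the unshifted difference. Over 137 named items and 2403 comparisons with an alternative, 2120 kept both, 190 lost the call, 30 gained one and 63 changed sign. With the total of all deposited loci and with TMM over them, 1 and 0 names were higher and 170 and 209 lower, 1 and 0 families were higher and 110 and 142 lower, and 1 and 0 clusters or single loci were higher and 118 and 143 lower. Families called higher numbered 39 with DESeq2, 39 with the highest-count locus only and 38 with the factors of the names, against 25. As a share of all deposited loci, the difference of large minus small was -1.46 for miR-25/32/92 (3.72 of miRNA counts), -2.14 for miR-10 (-5.00) and -0.808 for miR-30 (3.13). By families in place of names, the top share differed by 3.91 (-1.09 by name), the top 10 by 2.44 (0.967) and the number holding 50% by -0.667 (0). With the highest-count locus only, the latter 2 were -0.518 and 0.667.

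Leaving out each library in turn gave 30 to 47 higher and 30 to 52 lower names, 19 to 43 lower families, 18 to 34 higher and 18 to 42 lower clusters or loci, and 0 to 11 hairpins shifted to the 5′ and 0 to 13 to the 3′ arm; the lowest numbers were without small 1, and for higher names also without large 11. Changes of sign were in items that were not called, but for the miR-1388 arm ratio, at -0.52 with a pseudocount of 5. Under leave-one-out they ranged from -0.023 to 0.82 for let-7f, -0.12 to 0.63 for miR-26a, -1.76 to 0.50 for miR-155, -0.73 to 0.29 for tch-miR-200b-3p, -0.15 to 0.30 for miR-199a-5p, -3.23 to 0.086 for miR-214, -0.23 to 0.31 for miR-202, -0.65 to 0.43 for chi-miR-202-3p, -0.27 to 0.44 for the let-7/98 family and -0.42 to 0.46 for the miR-26 family. Among clusters they ranged from -0.55 to 0.31 for miR-202, -0.25 to 0.43 for miR-30c/30e, -0.052 to 0.51 for miR-31, -0.061 to 0.55 for miR-30a and -0.0070 to 0.79 for miR-98/let-7f.

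With TMM over all deposited loci, and relative to the shift of the median, values were -0.016 for let-7f, -0.093 for miR-26a, 0.87 for miR-155, -0.083 for miR-199a-5p, 0.16 for miR-214, -0.077 for miR-202, and -0.19, -0.095, -0.040 and -0.072 for the clusters of miR-30c/30e, miR-31, miR-30a and miR-98/let-7f. With the total of all deposited loci they were 0.79 for miR-155, 0.16 for miR-214 and -0.11 for miR-30c/30e. With the highest-count locus they were 0.057 for miR-155, -0.39 for miR-199a-5p, 0.057 for let-7/98 and 0.065 for miR-26. With DESeq2's size factors, and with DESeq2, they were -0.018 for miR-202, 0.10 for let-7/98 and 0.014 for miR-26. With the total of the miRNA loci they were -0.093 for miR-202, 0.19 for let-7/98, 0.10 for miR-26 and -0.00091 for miR-30c/30e, and with the factors of the names 0.22 for let-7/98 and 0.11 for miR-26. Without names of several loci the miR-17-92 cluster was at -1.80 and the let-7a/let-7b cluster on chromosome 5 at -0.15. The cause of these changes was not tested.

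The only-2-sizes fit ended the calls of miR-191, miR-182, chi-miR-145-3p, miR-126-5p, the miR-146 and miR-24 families and 5 clusters. No paired analysis was run, because the sizes share no replicate numbers in the labels, which do not give the collection of each library either. Offsets for GC content and grouping by mature sequence were not run. The depth of the large libraries limits names of few counts, where 3 counts are 0.00205% of large 11.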

Other observations

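In the abundance profile of the 225 names, the first principal component of the 9 libraries (51.1% of the variance) had scores of -0.41, -0.33 and -0.28 for small 1, 2 and 4, of -0.15, -0.16 and 0.03 for medium 5, 6 and 8, and of 0.39, 0.55 and 0.37 for large 10, 11 and 12. The second component (19.2%) set the libraries of each size apart in the same order, with -0.22, -0.21 and -0.62 for small 2, medium 6 and large 10, scores of 0.00, 0.04 and -0.07 for small 1, medium 5 and large 11, and 0.23, 0.21 and 0.65 for small 4, medium 8 and large 12. The labels do not say which libraries came from the same collection, and these scores were looked at after the fits. On the same axis, the let-7/98 family took its lowest share of each size in small 4, medium 8 and large 12 (10.4%, 12.7% and 9.25%).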
